A study of Mus musculus with 4 samples.

Results

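Regions of open chromatin at protein-coding promoters that are poor in CpG, the dinucleotide C followed by G, were described in mouse embryonic stem cells (ESCs). A coding gene start, the 5′ end of a protein_coding gene of GENCODE mouse release 21 on the 19 autosomes, was called CpG-poor when the sequence from 500 bp before to 500 bp after it had an observed/expected CpG ratio (CpG o/e) under 0.4. This ratio is the number of CpG divided by the number that the C and G content of the sequence would give. The members were the union regions, made by merging overlapping ATAC-seq peaks of all libraries, that came within 1 kb of such a start and not within 1 kb of any other coding gene start. There were 1146 member regions, at 1139 gene starts, among 52714 union regions in all. A further 101 regions lay near a CpG-poor start but also near another coding start, and were left out. Membership was set by sequence and position, and by the presence of a peak in at least 1 library.

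ATAC-seq (assay for transposase-accessible chromatin) marks DNA that a transposase can reach. There were 4 libraries of E14 ESCs, an established line, kept here in serum and LIF, infected with pLKO lentivirus, selected with puromycin for 2 days and taken 2 days later: 1 library with a hairpin against GFP (shGFP) and 3 with a hairpin against luciferase (shLuc). Neither hairpin has a target in the mouse genome, so all 4 are controls, and the labels number the 3 shLuc libraries as replicates without saying whether they came from separate cultures. The lists held between 17860 (shLuc replicate 1) and 41943 (shGFP) peaks, with no height, score or depth, and read totals were not used here. With 1 library against 3, an exact permutation test cannot go below a p of 0.25, so libraries are described here and not tested. The 95% Wilson intervals cover counting error only, and neighboring genes and gene copies are not independent. A peak in a list from pooled cells cannot tell whether few or most cells had that site open.

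In mammals most CpG are methylated and have been lost from the genome over time, apart from CpG islands, which stay unmethylated and carry the starts of housekeeping genes and of many developmental regulators. CpG-poor promoters belong mostly to genes used in 1 tissue or at 1 stage, such as those of secreted enzymes, keratins or odorant receptors, and they depend on the transcription factors of that tissue. They have a TATA box more often than CpG island promoters do.

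The following sequences, from the GRCm38.p6 reference (the mm10 coordinates), show what a CpG-poor promoter looks like where a region lies on it. Each is the 200 bases before a gene start, in the direction of the gene, with every CpG in capitals. C1rl, which encodes a complement protease-like protein, had the lowest CpG o/e in the region itself among the members open in all 4 libraries, and Gm14393 is a gene model in a zinc finger gene cluster on chromosome 2. Serpina3i, a serine protease inhibitor gene, is shown because its whole start window had 0 CpG. In Zfp972, a zinc finger gene of the same cluster as Gm14393, the capitals mark CTTCCGG as well, and in Car3, which encodes a carbonic anhydrase, they also mark the TATA box TATAAA. The 200 bases of Car3 had a CpG o/e of 0.486, above the threshold, and only its whole start window, at 0.343, was CpG-poor. Dppa2 is a pluripotency gene.
C1rl, chr6:124492913-124493112, plus strand: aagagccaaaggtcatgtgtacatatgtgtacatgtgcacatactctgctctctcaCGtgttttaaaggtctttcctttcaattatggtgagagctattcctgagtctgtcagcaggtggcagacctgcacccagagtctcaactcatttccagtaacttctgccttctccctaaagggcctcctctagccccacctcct
Gm14393, chr2:175067782-175067981, minus strand: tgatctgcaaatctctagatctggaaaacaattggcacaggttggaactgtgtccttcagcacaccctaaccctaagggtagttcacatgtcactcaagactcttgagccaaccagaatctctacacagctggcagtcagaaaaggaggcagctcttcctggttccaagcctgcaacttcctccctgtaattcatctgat
Serpina3i, chr12:104262922-104263121, plus strand: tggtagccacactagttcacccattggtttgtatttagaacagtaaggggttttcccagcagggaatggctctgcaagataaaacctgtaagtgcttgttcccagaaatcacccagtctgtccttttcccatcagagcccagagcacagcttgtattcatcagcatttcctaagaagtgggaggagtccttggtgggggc
Zfp972, chr2:177925614-177925813, minus strand: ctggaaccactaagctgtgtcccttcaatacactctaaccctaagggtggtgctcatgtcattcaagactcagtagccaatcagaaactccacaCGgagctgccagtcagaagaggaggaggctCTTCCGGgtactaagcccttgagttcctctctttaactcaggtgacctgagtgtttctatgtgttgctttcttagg
Car3, chr3:14863312-14863511, plus strand: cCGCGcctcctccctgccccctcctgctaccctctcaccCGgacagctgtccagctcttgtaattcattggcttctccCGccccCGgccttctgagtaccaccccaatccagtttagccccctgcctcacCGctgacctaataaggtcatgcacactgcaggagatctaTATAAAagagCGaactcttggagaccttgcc
Dppa2, chr16:48303708-48303907, plus strand: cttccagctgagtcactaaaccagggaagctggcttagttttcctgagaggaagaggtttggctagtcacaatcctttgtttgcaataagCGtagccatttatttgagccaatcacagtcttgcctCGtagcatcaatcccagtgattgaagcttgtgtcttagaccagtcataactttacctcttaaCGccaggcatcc

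Other members lay wholly or in part on a CpG-rich stretch beside the annotated gene start. The Cnot6l region left its gene start out, and the Rdx region covered both of the starts shown. The next sequences compare, for 2 of the widest members, the 200 bases before the gene start with those before another protein-coding start of the same gene that the open region covered. For Cnot6l the number of CpG was 2 before the gene start and 27 before the other start. For Rdx it was 1 and 31.
Cnot6l gene start, chr5:96164172-96164371, minus strand: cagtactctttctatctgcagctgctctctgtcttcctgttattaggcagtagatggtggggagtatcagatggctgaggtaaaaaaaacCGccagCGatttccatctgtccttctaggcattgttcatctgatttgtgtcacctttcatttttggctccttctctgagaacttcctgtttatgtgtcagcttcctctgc
Cnot6l other start, chr5:96161991-96162190, minus strand: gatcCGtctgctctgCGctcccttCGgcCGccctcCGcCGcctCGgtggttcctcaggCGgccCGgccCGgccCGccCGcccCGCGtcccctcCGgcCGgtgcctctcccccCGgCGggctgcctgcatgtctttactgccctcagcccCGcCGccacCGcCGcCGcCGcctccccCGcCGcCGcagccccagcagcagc
Rdx gene start, chr9:52046973-52047172, plus strand: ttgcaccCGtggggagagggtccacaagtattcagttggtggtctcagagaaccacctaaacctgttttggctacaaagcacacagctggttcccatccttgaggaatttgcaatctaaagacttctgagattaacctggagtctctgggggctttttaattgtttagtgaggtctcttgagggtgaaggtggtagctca
Rdx other start, chr9:52047915-52048114, plus strand: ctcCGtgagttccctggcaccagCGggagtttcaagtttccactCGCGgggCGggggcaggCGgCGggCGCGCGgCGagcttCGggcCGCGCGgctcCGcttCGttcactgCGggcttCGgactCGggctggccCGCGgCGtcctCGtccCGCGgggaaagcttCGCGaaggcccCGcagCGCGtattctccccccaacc

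Few CpG-poor starts were open. A start was called open when a peak came within 1 kb of it. Of 8133 CpG-poor starts, 1266 were open in at least 1 library (15.6%, 95% interval 14.8 to 16.4), beside 61% of all 20807 autosomal coding starts. Of the 9822 CpG-rich starts, those with a CpG o/e of 0.6 or above, 93.8% (9209) were open. The share of open CpG-poor starts was 5.90% in shLuc replicate 1, 10.0% in shLuc replicate 3, 12.9% in shLuc replicate 2 and 13.2% in shGFP. CpG-rich starts were open in the same order of libraries, at 76.2%, 82.7%, 88.7% and 89.4%. The gap was large in each library: the share of CpG-rich starts over that of CpG-poor starts was 6.02 for any library, 6.79 in shGFP, and 12.9, 6.87 and 8.23 in shLuc replicates 1, 2 and 3. A peak in all 4 libraries was found at 386 CpG-poor starts (4.75%) and at 69.5% of CpG-rich starts, against 40.2% of all coding starts.

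The open share grew with every step of CpG content. It was 2.98% of 1679 starts with a CpG o/e under 0.1, 6.92% from 0.1 to 0.2, 19.0% from 0.2 to 0.3 and 44.4% of 1397 starts from 0.3 to 0.4. No share was computed for windows of like size away from starts. Low shares, here and for the gene families below, were therefore not set against a background. Starts just above the threshold, from 0.4 to 0.5, were open in 68.4% of cases. Starts from 0.3 to 0.4 thus gave 620 of the 1266 open CpG-poor starts. Within the CpG-poor class the share also followed the G and C content of the window, from 2.06% of the 1844 starts under 40% to 31.4% of the 803 starts at 55% or above. Starts whose window was 75% or more repeat sequence were open in 1.75% of cases (2 of 114), against 17.9% of those under 10%.

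**Figure D1:**
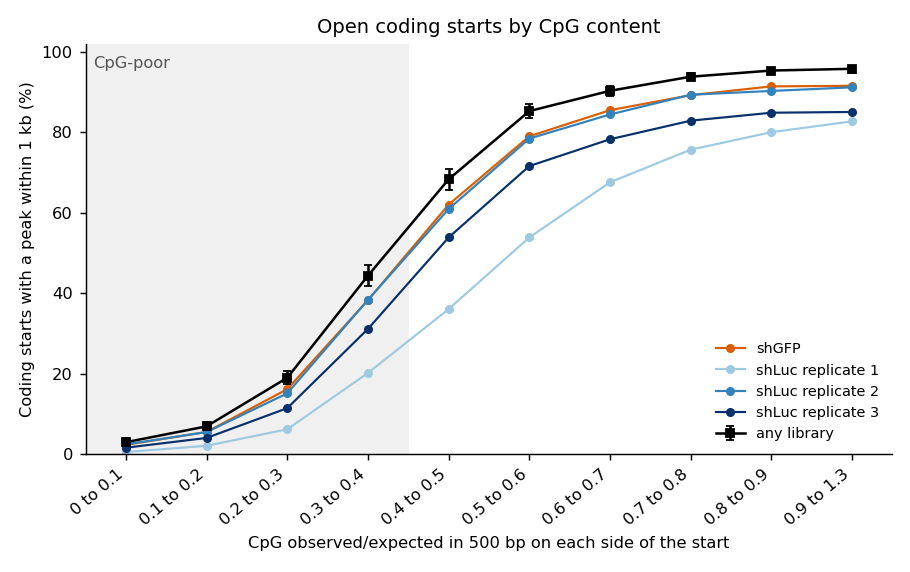
Share of autosomal coding starts with a peak within 1 kb (vertical axis, percent) by CpG o/e of the start (horizontal axis, bins), for each library and for any library, with 95% Wilson intervals on the last. The gray field holds the CpG-poor starts, where the share for any library goes from 2.98% to 44.4%, and shLuc replicate 1 lies lowest in every bin.

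The position of the peaks differed too. At the start base itself 8.78% of CpG-poor starts were covered by a peak of any library, against 91.0% of CpG-rich starts. Coverage 5 kb upstream of CpG-poor starts was 1.81%, so the share at the start was above that of the surrounding DNA. Coverage at CpG-poor starts was uneven between sides: 500 bp upstream it was 2.56%, and 500 bp downstream 5.71%. At 1 kb downstream 4.49% of CpG-poor starts were still covered, and at 2 kb 2.73%, whereas at CpG-rich starts coverage fell from 14.8% at 1 kb to 0.733% at 2 kb. In shLuc replicate 1, which had the fewest peaks, 2.78% of CpG-poor starts were covered at the start base and 1.67% at 1 kb downstream.

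**Figure D2:**
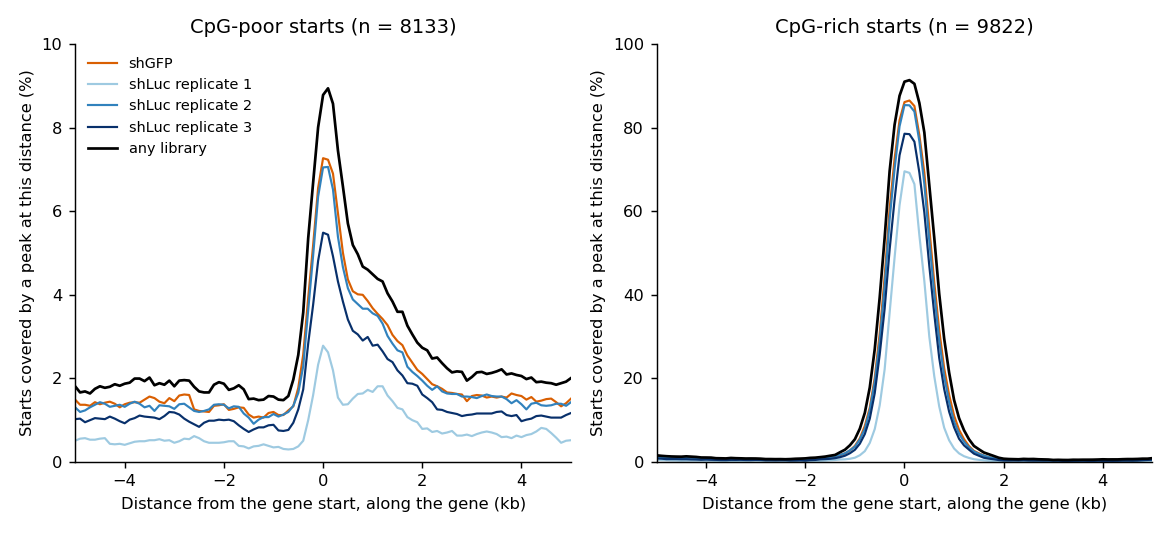
Share of starts covered by a peak (vertical axis, percent) by distance from the gene start in the direction of the gene (horizontal axis, kb), for 8133 CpG-poor starts on the left and 9822 CpG-rich starts on the right, on vertical axes of different height. CpG-poor starts show a low peak within 100 bp of the start, where coverage is 8.78%, with a shoulder on the downstream side in every library, and CpG-rich starts a peak with 91.0% at the start.

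The members were found unevenly by the libraries. A peak in shGFP overlapped 974 of the 1146 members (85.0%), one in shLuc replicate 1 overlapped 448 (39.1%), one in replicate 2 overlapped 957 (83.5%) and one in replicate 3 overlapped 757 (66.1%). Over all union regions the shares were similarly uneven, at 79.4%, 33.8%, 78.4% and 59.8% in the same order. All 4 libraries had a peak in 359 members (31.3%, 28.7 to 34.1), beside 27.2% of all union regions. The same was true of 71.5% of the 7110 regions at a single CpG-rich start. The most common pattern after that was a peak in every library but shLuc replicate 1, in 301 members (26.3%), beside 22.4% of all union regions. A single library accounted for 227 members (19.8%), beside 28.3% of all union regions. Of the 227, shGFP gave 97, shLuc replicate 2 gave 94, replicate 3 gave 21 and replicate 1 gave 15. Without shLuc replicate 1, 58.4% of 1130 members were in all remaining libraries. The order of the libraries by members was the order by length of their lists, and the part of depth in this was not tested.

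Members were narrower than regions at CpG-rich starts. Their median width was 759 bp, with quartiles of 559 and 1038 bp, against 1124 bp at CpG-rich starts. Members in 1 library had a median width of 459 bp, and members in all 4 libraries one of 969 bp. To set the classes side by side at like width, regions were binned by the width of their shGFP peak. Among members with an shGFP peak of 500 to 750 bp, 31.4% (26.5 to 36.8, n = 312) had a peak in all 4 libraries, against 68.2% (65.4 to 70.9, n = 1088) of CpG-rich regions. At 750 to 1000 bp the shares were 48.2% of 220 members and 78.8% of 1994 CpG-rich regions, and at 1000 to 1250 bp 61.7% of 133 and 81.7% of 1699. In the widest bin, 1250 to 1500 bp, the intervals overlapped, at 66.0% (51.7 to 77.8) of 47 members and 79.3% (76.7 to 81.7) of 1004. Below that bin the members had the lower share at like width, with intervals that did not overlap.

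**Figure D3:**
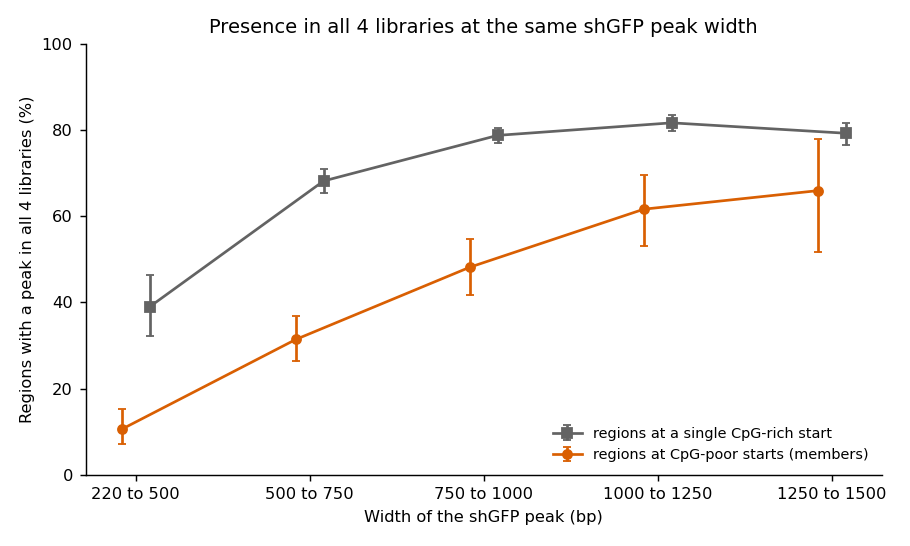
Share of regions with a peak in all 4 libraries (vertical axis, percent) by the width of the shGFP peak (horizontal axis, bp), for members and for regions at a single CpG-rich start, with 95% Wilson intervals. Members lie below CpG-rich regions in each bin, and the intervals overlap only from 1250 to 1500 bp.

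Members differed among themselves in where the region lay and in its own CpG content. The region covered the start base in 666 members (58.1%), against 96.3% of regions at CpG-rich starts. In 522 members (45.5%) the region covered the start and was itself CpG-poor, with a median width of 742.5 bp. In another 144 it covered the start but had a CpG o/e of 0.4 or above. The remaining 480 lay beside the start: 207 with a region o/e under 0.4, 112 from 0.4 to 0.6 and 161 at 0.6 or above. Of the 161, 154 (95.7%) had their center downstream of the gene start, and 106 covered another protein-coding start of the same gene whose own window had a CpG o/e of 0.6 or above. They had a median width of 1154 bp and a median GC content of 63.6%. A peak in all 4 libraries was found in 65.2% (57.6 to 72.1) of these 161, in 29.7% (25.9 to 33.7) of the 522 CpG-poor regions on the start, and in 8.70% (5.57 to 13.3) of the 207 CpG-poor regions beside it.

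**Figure D4:**
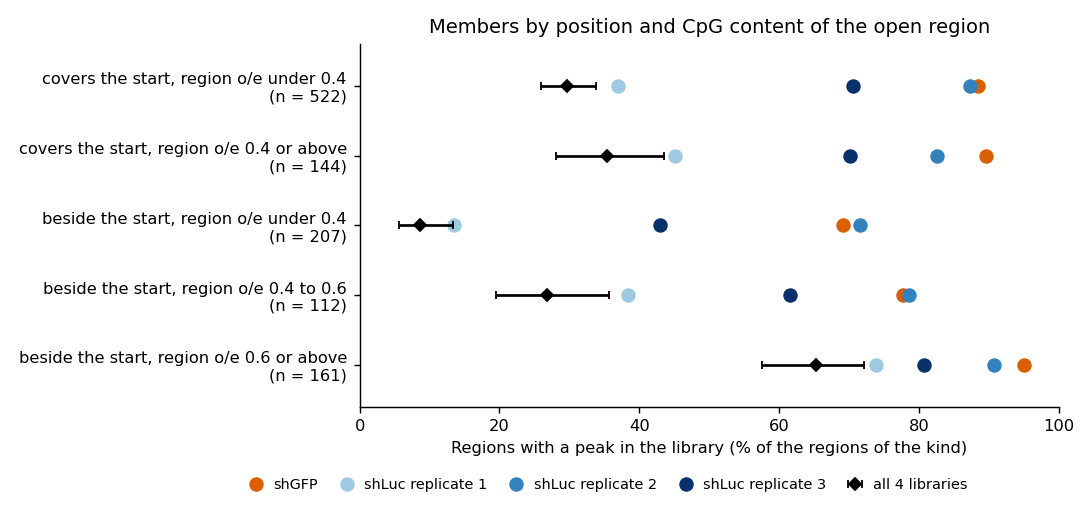
Share of member regions with a peak in each library and in all 4 (horizontal axis, percent), for 5 kinds of member given on the vertical axis by position and region CpG o/e, with a 95% Wilson interval on the share in all 4. Regions beside the start with a region o/e of 0.6 or above lie highest in shLuc replicate 1 (73.9%), and CpG-poor regions beside the start lie lowest there (13.5%).

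The widest members open in all 4 libraries were mostly of the CpG-rich kind beside the start. Of the 10 widest, 9 had a region o/e of 0.6 or above, 8 did not cover the gene start, and 6 held another coding start of the gene with a CpG o/e of 0.6 or above. They were Adra2c (an adrenergic receptor), Cnot6l (a deadenylase of the CCR4-NOT complex), Man1a (a Golgi mannosidase), Fjx1, Rdx (radixin, which ties actin to the cell membrane), Slc6a9 (a glycine transporter), Galnt17 (a glycosyltransferase), Nr6a1 (an orphan nuclear receptor), Cul1 (the scaffold of SCF ubiquitin ligases) and the gene model AI593442. The Cnot6l region, chr5:96161010-96163228, had a region o/e of 0.960 and began 943 bp downstream of a gene start with a CpG o/e of 0.104. Its peaks measured 1791 bp in shGFP, and 914, 2042 and 1565 bp in shLuc replicates 1, 2 and 3. The Cul1 region, chr6:47453486-47455377, had a region o/e of 0.859 and peaks of 1892, 1391, 1701 and 1656 bp in the same order. The Adra2c region gave peaks of 1303, 2126, 612 and 2090 bp, the only one of the 10 in which shLuc replicate 1 had the widest peak. The AI593442 region was the exception in sequence, with a region o/e of 0.424.

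The 5 members open in all 4 libraries with the lowest CpG o/e at the start were Olfr1431 (0.0284), Gm14393 (0.0378), Pomgnt2 (0.0635), Klf1 (0.0783) and Cabyr (0.0810). Only the region of Gm14393 covered its start. The Olfr1431 region lay 923 bp before this odorant receptor gene, and 72.0% of its bases were repeat sequence. The regions of Pomgnt2, a glycosyltransferase of dystroglycan, and Klf1, a transcription factor of red blood cells, lay 934 and 726 bp downstream of the start and had region o/e of 0.721 and 0.742. The region of Gm14393, chr2:175067485-175068374, had a region o/e of 0.0607, with peaks of 870 bp in shGFP and of 728, 697 and 645 bp in the shLuc replicates.

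Among the 522 CpG-poor regions on the start, 155 were open in all 4 libraries. The genes below were chosen after their values were seen, as those of the 155 with the lowest region o/e or with a well-known tissue. The C1rl region, chr6:124492795-124493271, had a region o/e of 0.0322 and peaks of 415 bp in shGFP and of 284, 419 and 266 bp in the shLuc replicates. Fgd2, Hsd3b7 and Trim21 followed C1rl and Gm14393 in the order of region o/e, at 0.102, 0.139 and 0.151. Trim21 encodes an antibody receptor of the cytosol, and its peaks measured 677, 486, 583 and 604 bp. Trex1, which encodes a nuclease that degrades DNA in the cytosol, gave 848, 501, 1163 and 589 bp. Of the 155, 38 were at zinc finger genes named Zfp or in the chromosome 2 cluster described below. Some genes of differentiated tissues were among the 155, and the share of such genes was not counted. In the tissue and stage lists below, 9 of 88 CpG-poor starts were open in any library, beside 15.6% of all CpG-poor starts. Only those of Col1a1 and Ckm were open in all 4 libraries. Nppb, which encodes a natriuretic peptide of the heart, had peaks of 481, 686, 677 and 510 bp. Tph2, the enzyme for serotonin synthesis in neurons, had peaks of 402, 350, 425 and 451 bp. Car3, known from muscle and fat, had peaks of 839, 552, 1004 and 818 bp. Cd74, the invariant chain of MHC class II, had peaks of 410, 277, 381 and 506 bp, and the immune receptor gene Cd40 had peaks of 656, 399, 692 and 591 bp. In C1rl, Trim21, Trex1, Tph2, Car3, Cd74 and Cd40 the peak of shLuc replicate 1 was narrower than those of shGFP and shLuc replicate 2. In Nppb, at 686 bp, the peak of shLuc replicate 1 was the widest. Over the members as a whole the median peak of shLuc replicate 1 was 524 bp. It was 704.5, 689 and 685 bp in shGFP and shLuc replicates 2 and 3.

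CpG-poor starts of gene families were open at very different shares. Odorant receptors had 1124 CpG-poor starts, of which 14 were open (1.25%, 0.743 to 2.08). Of 328 vomeronasal receptor starts 1 was open. None of the 56 keratin-associated protein genes and of the 25 prolactin family genes had a listed peak, and 1 of 40 keratin genes did. Defensins had 3 of 63 and cytochrome P450 enzymes 8 of 84. Shares near that of the class were found for serpins (9 of 57), chemokines and interleukins (9 of 61), CD antigens (12 of 67) and solute carriers (25 of 128). Collagens had 7 of 18 (38.9%, 20.3 to 61.4) and S100 proteins, which bind calcium, 4 of 11 (36.4%, 15.2 to 64.6). Without the odorant and vomeronasal receptors the open share of CpG-poor starts was 18.7% (1251 of 6681).

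Apart from Olfr1431, the odorant receptor genes open in all 4 libraries were Olfr156 and Olfr641. Olfr156 had a CpG-poor region on its start with peaks of 535, 392, 436 and 547 bp, and no 50-base word of the region was found elsewhere in the genome. The Olfr641 region, with peaks of 1315, 1297, 1331 and 1326 bp, lay 762 bp from the start, and 94.7% of its words were found elsewhere. Because reads with several equally good positions were placed at one of them at random, the copy that gave such a peak is uncertain. Whether whole read pairs had several positions was not measured.

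Zinc finger genes named Zfp had the highest open share of the 26 families with at least 10 CpG-poor starts, although its interval overlapped those of collagens and S100 proteins. Of 95 CpG-poor Zfp starts, 56 were open (58.9%, 48.9 to 68.3), and 31 were open in all 4 libraries (32.6%). Among all CpG-poor starts these shares were 15.6% and 4.75%. By library, 55.8% of the Zfp starts were open for shGFP, and 33.7%, 54.7% and 51.6% for shLuc replicates 1, 2 and 3. Most of these genes encode KRAB zinc finger proteins, a family known for silencing transposable elements, and many lie in clusters of near copies. Most open Zfp starts were close to the threshold: from 0.3 to 0.4 of CpG o/e 42 of 48 Zfp starts were open (87.5%, 75.3 to 94.1), against 42.8% (40.2 to 45.5) of 1349 other starts. From 0.2 to 0.3 it was 11 of 24 (45.8%, 27.9 to 64.9) against 18.7% (17.0 to 20.4), and under 0.2 it was 3 of 23 (13.0%, 4.54 to 32.1) against 5.47% (4.86 to 6.16), where the intervals overlapped. These classes were set after the values were seen. At CpG-rich starts the Zfp share was 95.5% (190 of 199), beside 93.8% of all CpG-rich starts. The 53 Zfp member regions lay on 10 chromosomes, with 16 on chromosome 2, 10 on chromosome 7, 9 on chromosome 13 and 7 on chromosome 17. They covered the start in 46 cases (86.8%), and 37 of the 53 were CpG-poor regions on the start. The widest in all 4 libraries was Zfp977 on chromosome 7, with peaks of 1279, 319, 1191 and 872 bp, followed by Zfp958 on chromosome 8 with 952, 463, 990 and 960 bp. In both the peak of shLuc replicate 1 was the narrowest.

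A cluster on distal chromosome 2 held 40 members between 174643996 and 178078998 bp, 11 named Zfp and 28 gene models named Gm. Its bounds, 174 and 178.5 Mb, were set after the values were seen. Within them 40 of 49 CpG-poor starts were open (81.6%), with 38, 19, 39 and 39 in shGFP and shLuc replicates 1, 2 and 3. The region covered the start in 38 of the 40 members, and 18 of them were in all 4 libraries. Many genes of this cluster are near copies of each other. At least 50% of the 50-base words occurred elsewhere in the genome in 35 of the 40 regions (87.5%), against 5.15% (59) of all members and 1.01% of regions at CpG-rich starts. Zfp972, chr2:177925256-177926263, had peaks of 1008, 623, 973 and 972 bp, and 71.9% of its words were repeated. Gm14393 had 37.7% repeated words. The region of Zfp831, with peaks of 937, 0, 908 and 666 bp, had no repeated word. Where peaks of the 35 regions rest on repeated words, the copies that gave them are uncertain, and the positions of whole read pairs were not measured. The share of repeated words in these regions went from 50.5% in Zfp971 to 100%. Of the 42 Zfp members outside the cluster 37 had under 50% repeated words. With Zfp831 these alone made 38 of the 95 CpG-poor Zfp starts (40%) open, beside 14.8% of the 8000 CpG-poor starts that were neither Zfp nor in the cluster, counted with all their regions, and 44.4% of all starts from 0.3 to 0.4. Of the 38, 22 were in all 4 libraries (57.9%), beside 31.3% of the 1087 members with under 50% repeated words. Among the Zfp members in all 4 libraries, 8 had no repeated word. One was Zfp958, and another Zfp941 on chromosome 7 with peaks of 900, 776, 867 and 1010 bp.

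**Figure D5:**
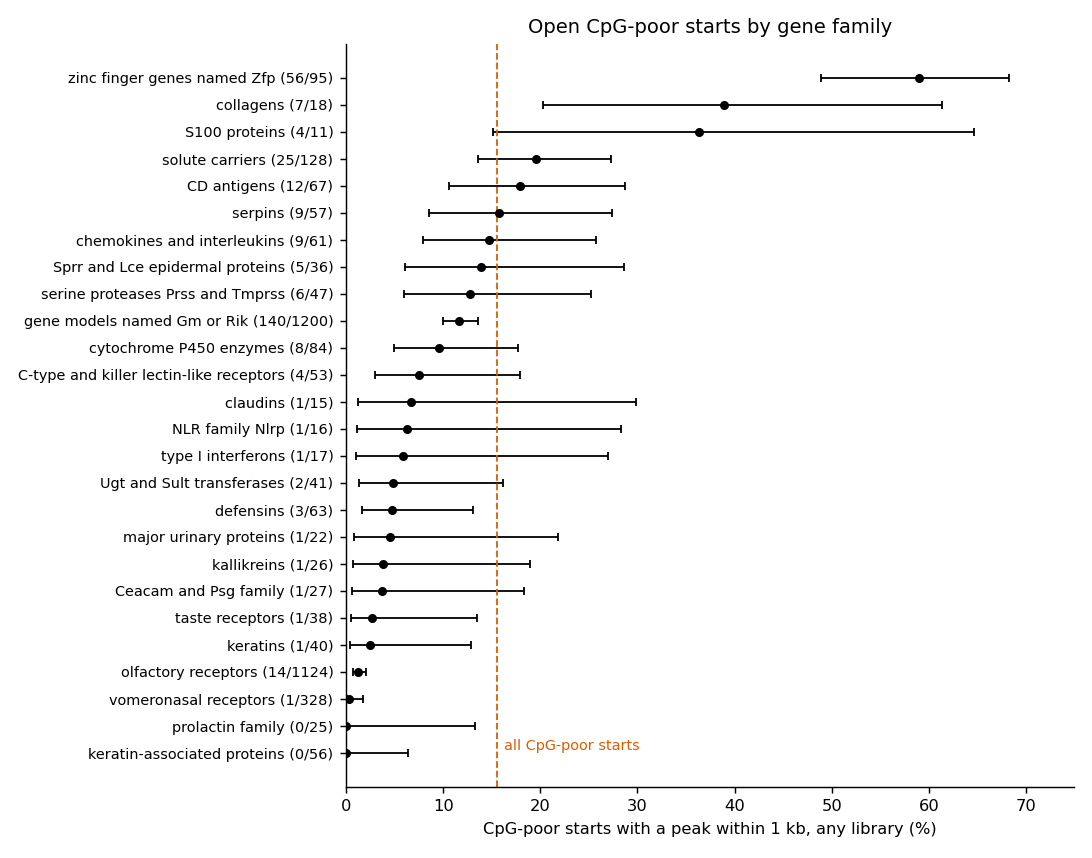
Share of CpG-poor starts with a peak of any library within 1 kb (horizontal axis, percent) for the 26 gene families with at least 10 CpG-poor starts (vertical axis, with open over all), with 95% Wilson intervals; the dashed line is the share of all CpG-poor starts. Zfp genes lie at 58.9%, and odorant and vomeronasal receptors under 2.08% and 1.71% at the upper ends of their intervals.

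The lists of marker genes give starts with or without a peak, and they did not set the labeled cell type apart. Of 30 pluripotency gene starts 11 were open in any library, beside 61% of all coding starts. Of the 30, 13 were CpG-poor, of which 4 were open and 0 in all 4 libraries, beside 15.6% and 4.75% of all CpG-poor starts. In the fibroblast list 3 of 7 CpG-poor starts were open. Dppa2 had peaks of 696 bp in shGFP, none in shLuc replicate 1, and 874 and 692 bp in replicates 2 and 3, in a region, chr16:48303336-48304209, that covered the start. Fbxo15, an F-box gene of undifferentiated ESCs, had peaks of 1170, 0, 1157 and 653 bp in the same order. Gdf3, a TGF-beta family ligand, had a peak of 974 bp in shLuc replicate 3 only, 909 bp from the start. Dnmt3l, a cofactor of DNA methylation, had a peak of 934 bp in shGFP only, and was not a member, because its region lay near the start of Aire as well. The CpG-poor starts of Pou5f1, Nanog, Esrrb, Lin28a, Lefty1, Lefty2, Fgf4, Dppa4 and Nr5a2 had no listed peak within 1 kb, and neither did the CpG-rich start of Sox2. These genes are used by ESCs, and a missing peak in these lists does not show that a promoter was closed.

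In the tissue and stage lists together 9 of 88 CpG-poor starts were open, beside 15.6% of all CpG-poor starts, and the lists are too short to set apart from that share one by one. None of the 17 CpG-poor starts of genes of the 2-cell stage, such as Zscan4c and Zscan4d, was open, nor any of the 10 oocyte, 9 blood, 10 epidermis and 8 pancreas and gut starts. One of 12 liver starts was open, that of Apob (apolipoprotein B), with peaks of 1311, 0, 458 and 320 bp, and 1 of 4 germline starts, that of Prm2 (a protamine of sperm), with a peak of 331 bp in shLuc replicate 1 only. The neural starts open were those of Mobp and Gfap, 2 of 4, each in 2 libraries. Of 7 muscle starts Tnnt3 had a peak of 559 bp in shLuc replicate 2 only, and Ckm had peaks of 670, 547, 429 and 513 bp but was not a member. Fibroblast genes had 3 of 7 open. The gene of the collagen chain Col1a1 had peaks in all 4 libraries, of 962, 549, 716 and 530 bp, in a region 745 bp downstream of the start, chr11:94936969-94937930, with a region o/e of 0.475. Col1a2 had peaks of 739 and 1173 bp in shGFP and shLuc replicate 2, and Dcn one of 238 bp in shLuc replicate 2, while Col3a1, Lum, Postn and Pdgfra had none.

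Of 15 short sequence words searched, not all are given here. Apart from the TATA box, they were counted from 250 bases before to 50 after each start, on both strands. The TATA box TATAAA, searched on the gene strand and beginning 40 to 20 bases before the start, was at 21 of 1266 open CpG-poor starts (1.66%, 1.09 to 2.52), at 5.49% (4.98 to 6.05) of the 6867 CpG-poor starts without a peak, at 0.774% of CpG-rich starts and at 2.48% of all coding starts. The lower share at open starts was found in each class of GC content: 3.26% against 5.57% under 45% GC, where the intervals overlapped, 2.31% against 5.65% from 45 to 50%, and 0.952% against 5.18% at 50% or above. Without odorant and vomeronasal receptors it was 1.68% against 6.21%. The open starts with a TATA box were in all 4 libraries those of Car3, Myh11 (smooth muscle myosin), Tph2, Agtr1b (an angiotensin receptor) and Fancl (a ubiquitin ligase of DNA repair), and in 3 libraries, among others, those of Krt17 (a keratin), Hcrt (the neuropeptide orexin), Apob and Cxcl3 (a chemokine). These were named after their values were seen. A match to these letters is no proof of a TATA box in use.

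The GC box GGGCGG, a word of SP and KLF factors, was at 22.7% of open CpG-poor starts and 8.15% of those without a peak, against 70.4% of CpG-rich starts and 43.7% of all. The ETS word CCGGAAG was at 4.98% and 1.76%. Both words hold a CpG. Words without a fixed CpG went either way: the CTCF core CANNAGGNG was at 24.0% (21.7 to 26.4) of open and 17.8% (16.9 to 18.7) of other CpG-poor starts, and the GATA word AGATAA at 11.6% (9.96 to 13.5) and 17.2% (16.3 to 18.1). The CCAAT box was at 39.9% of open and 39.2% of other CpG-poor starts, and at 46.9% of the 386 open in all 4 libraries. The octamer of POU factors was at 2.37% (1.66 to 3.36) of open and 2.01% (1.70 to 2.37) of other CpG-poor starts. The next words were less frequent at the open starts. The SOX word ACAATGG was at 2.84% (2.06 to 3.91) against 4.81% (4.32 to 5.34). The ESRRB word TCAAGGTCA was at only 4 of 1266 (0.316%, 0.123 to 0.810) against 58 of 6867 (0.845%, 0.654 to 1.09), with intervals that overlapped. The AP-1 word TGANTCA was at 8.93% against 11.5%. The words whose values are not given, those of CACCC, CREB, MYC, TEAD and NRF1, were slightly more frequent at open starts, with intervals that overlapped. The median GC content of the start window was 51.0% at open and 45.1% at other CpG-poor starts. Only the TATA box was split by GC content, and the part of GC content in the other words was not tested. At open CpG-poor Zfp starts the ETS word was more frequent, at 17 of 56 (30.4%, 19.9 to 43.3), against 3.80% of the other 1210 open CpG-poor starts and 5.13% (2 of 39) of the Zfp starts without a peak. The GC box went the other way at Zfp starts, at 4 of 56 open (7.14%, 2.81 to 17.0) and 13 of 39 without a peak (33.3%, 20.6 to 49.0). The CCAAT box was at 60.7% and 53.8% of them, with intervals that overlapped. Near copies share their promoters, so these Zfp starts, the 17 included, are not independent.

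The shGFP library had a larger open share than each shLuc library, by about the SD of the shLuc libraries above their mean. At CpG-poor starts the mean open share of the shLuc libraries was 9.62% ± 3.53 (SD, n = 3), and that of shGFP stood 3.53 percentage points above it. Without shLuc replicate 1 the difference was 1.67 points. When every list was shortened to its widest 17860 peaks, the length of the shortest, the difference was 0.426 points, with an shLuc SD of 0.206. With the full lists a like difference was found for all coding starts (6.15 points, SD 6.07) and for CpG-rich starts (6.81 points, SD 6.30). Of the members 97 (8.46%) had a peak in shGFP only, beside 11.7% of all union regions, and 6 (0.524%) were missing from shGFP only, beside 0.340%. The widest found in shGFP only were those of Gm5152 (1897 bp), Pax8, a transcription factor of thyroid and kidney (1780 bp), and Actl10 (1310 bp). The widest found in all shLuc libraries and not in shGFP were those of Klhl14 (301, 1766 and 2309 bp in replicates 1, 2 and 3), Tstd1 (272, 477 and 1093 bp) and Drc7 (300, 558 and 746 bp). In these 3 regions the peak of replicate 1 was the narrowest and that of replicate 3 the widest.

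Members close to the threshold inside were Lsmem1 (start o/e 0.3998, peaks of 729 bp in shGFP and 403 bp in shLuc replicate 2) and Fam20a (0.3997, peaks of 1289, 0, 1298 and 1278 bp in shGFP and shLuc replicates 1, 2 and 3). Those nearest outside were Rhoj (0.4004, peaks of 1084, 534, 1069 and 894 bp), Osbpl5 (0.4008, peaks of 675, 621, 631 and 696 bp) and Tppp3 (0.4010, peaks of 709, 0, 658 and 700 bp).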

How the data were processed

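ATAC-seq peak lists of 4 libraries were used. Per the submitters' processing notes, bcl2fastq, Bowtie2, MACS2 and the build mm10 were used, with no versions. Per the study's methods, under a heading shared with ChIP-seq, the best alignment was kept, reads with several equal positions were placed at one of them at random, mitochondrial reads were dropped and concordant pairs were kept. The peak threshold and any shift of reads for the transposase are not given in the sources used here. The deposited lists held only chromosome, start and end, 1 list per library and without depth, so peak width was the only quantity beside presence. No peak ran past the end of its GRCm38 chromosome.

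Peaks of the 4 libraries were merged on at least 1 bp of overlap. A start was open in a library with one of its peaks within 1 kb. The width given per library is that of its widest peak in the region. CpG o/e was computed on the GRCm38.p6 genome with GENCODE release 21 starts. Repeat sequence was the share of bases given in lower case in the reference. Repeated words were a separate measure, the share of 50-base words of a region with a further copy in the genome, on either strand. Python 3.11.15, numpy 2.4.6, pandas 2.3.3, scipy 1.17.1, pysam 0.24.0, samtools 1.23.1 and matplotlib 3.10.9 were used. Merging, overlap and CpG functions were tested on simulated data.

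The members, gene lists, families and motifs were chosen with earlier results of these data known. Named genes were, by rule, the 10 widest members in all 4 libraries, the 5 in all 4 libraries with the lowest start o/e, the 3 widest in shGFP only, the 3 widest in all shLuc libraries but not shGFP, the 3 starts nearest the threshold on either side, and the list genes at CpG-poor starts. A gene that this rule names is not reported here. Others were chosen after their values were seen. The alternatives varied the distance, the CpG window and threshold, the starts, the peaks kept, merging, presence and the libraries.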

Additional observations from a re-analysis of the deposited data

How the results depend on the processing

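No paired analysis was possible because shGFP has 1 library and no test was made. Each of 6 values was computed again under 16 alternatives. The open share, the number of members and their share in all 4 libraries have no direction, so only their size could change. The ratio of CpG-rich to CpG-poor share stayed above 1, from 5.78 to 10.4. The open share of shGFP minus the shLuc mean stayed positive, from 0.426 to 5.18 points. The TATA share of open minus other CpG-poor starts stayed negative, from -3.99 to -1.87 points. The share of open CpG-poor starts (15.6%) was 12.5% with regions within 500 bp, 8.78% when a region had to cover the start, 9.59% with CpG-poor under 0.3, 14.6% for starts with no other coding start within 2 kb, 10.0% with the widest 50% of each list and 10.7% with lists of equal length. In the same order, the ratio of CpG-rich to CpG-poor share (6.02) was 7.43, 10.4, 9.78, 6.39, 8.80 and 8.51. The number of members (1146) was 675 when a region had to cover the start, 586 under 0.3, 1984 with any protein-coding transcript start and 714 with the widest 50%. The share of members in all 4 libraries (31.3%) was 26.3% under 0.3, 17.5% with the widest 50%, 25.4% with equal lengths and 21.8% when peaks had to cover at least 50% of the region. The TATA share of open minus other CpG-poor starts (-3.83 points) was -1.87 points with any transcript start.

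Without 1 shLuc library at a time, the open share lay between 14.2% and 15.4%, the ratio between 6.06 and 6.49, the members between 1044 and 1130, and the TATA difference between -3.80 and -3.77. The share of members in all remaining libraries lay between 35.2% and 58.4%, the highest without shLuc replicate 1, and shGFP minus shLuc lay between 1.67 and 5.18 points, the lowest without replicate 1. The number of peaks in a list limits what can be seen: shLuc replicate 1, with 17860 peaks, covers 39.1% of members and 33.8% of all union regions. The part of depth in this was not tested.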
